A study of Mus musculus with 6 samples.

Results

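Transcripts of 7 RGS genes were followed in mouse invariant natural killer T (iNKT) cells sorted from liver, spleen and lymph node. The genes were Rgs1, Rgs2, Rgs3, Rgs10, Rgs14, Rgs16 and Rgs19, chosen by name from the regulators of G protein signalling when earlier results of these data were known. They make up 7 of the 27998 genes listed in the count tables and 7 of the 21 listed genes whose name is Rgs and a number. The cells came from wild-type C57BL/6 mice aged 5 weeks. They were enriched by removal of CD8+ and B220+ cells, and those that bound both an antibody to the T cell receptor beta chain and a CD1d tetramer were sorted and profiled by droplet-based 3′ single-cell RNA-seq. Each organ was represented by 2 libraries, described as biological repeats, with no statement of how many mice were pooled into each, so that the p-values measure the spread between these libraries. No group received a treatment and no allele was altered. The sort left Cd3e at 630 to 1168 and Zbtb16, the lineage factor of innate-like T cells, at 72.3 to 101 CPM (unique molecular identifiers, or UMIs, per 1000000 of the library), and Cd8a at 0 in 4 of the 6 libraries.

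RGS proteins shorten signals from G protein-coupled receptors. A receptor bound by its ligand loads the alpha subunit of a G protein with GTP, and an RGS protein speeds up the hydrolysis of that GTP, so that the subunit returns to its resting state and rejoins the beta and gamma subunits. In lymphocytes the receptors concerned include those for chemokines and for sphingosine-1-phosphate, which guide cells into, within and out of tissues. Rgs1, Rgs2, Rgs3 and Rgs16 belong to a family of mostly small RGS proteins. Rgs10 and Rgs14 belong to a family that acts chiefly on inhibitory alpha subunits, and Rgs19 to a family that also acts on these.

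The libraries held 2638 to 2861 cells each after filtering, with a median of 1470 to 3592 UMIs per cell over all genes. Liver had the most UMIs, at 7058417 and 6057009 per library against 3570875 to 3839577 in the other 4 once ribosomal and haemoglobin genes were set aside. The same barcode sequence occurred in more than 1 library for 148 barcodes of 16587. Both lymph node libraries differed from the other 4 in a way that the labels do not describe. They had no UMI of Xist, which is transcribed from the inactive X chromosome, and 1365 and 1582 UMIs of genes on the Y chromosome, whereas each liver and spleen library had 5401 to 10404 UMIs of Xist and none of the Y genes. Any difference between lymph node and the other organs therefore cannot be told apart from a difference in sex. Immediate early genes, which are transcribed within minutes of stimulation, were high in the lymph node as well. The 20 genes of that list summed to 2222 to 2991 CPM in liver and spleen and to 9724 and 10514 in lymph node. Junb, an AP-1 subunit, was at 403 to 813 in the former and at 4090 and 4399 in the latter. B cell markers summed to 3.92 to 30.4 and myeloid markers to 199 to 361, the latter mostly Cst3. Lyz2, another myeloid marker, was at 108 CPM in lymph node library 2 and at 0.84 to 18.0 in the others.

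The genes lie on 5 chromosomes of the GRCm38 build. Rgs1 (ENSMUSG00000026358, chr1:144242296-144249242) and Rgs2 (ENSMUSG00000026360, chr1:143999338-144004161) share the minus strand of chromosome 1, with Rgs13 between them, and Rgs16 (ENSMUSG00000026475, chr1:153740349-153745468) lies farther along on the plus strand. Rgs3 (ENSMUSG00000059810, chr4:62559847-62704001, plus strand) and Rgs10 (ENSMUSG00000030844, chr7:128373621-128418758, minus strand) are the longest. Rgs14 (ENSMUSG00000052087) is at chr13:55369732-55384687 on the plus strand and Rgs19 (ENSMUSG00000002458) at chr2:181688419-181693977 on the minus strand. Gm15503 overlaps Rgs10 on the same strand, so that the assignment of reads between these 2 genes is uncertain.

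Rgs2 and Rgs16 had the largest fold differences between lymph node and the other organs, so the sequence just before their transcription start is given first. Each line holds 200 bases, from 250 to 51 bases before the start, from RefSeq on GRCm38.p6, and capitals mark TGACG on either strand. This pentamer is one end of TGACGTCA, the palindrome bound by CREB proteins.
Rgs2, chr1:144004200-144004399, minus strand: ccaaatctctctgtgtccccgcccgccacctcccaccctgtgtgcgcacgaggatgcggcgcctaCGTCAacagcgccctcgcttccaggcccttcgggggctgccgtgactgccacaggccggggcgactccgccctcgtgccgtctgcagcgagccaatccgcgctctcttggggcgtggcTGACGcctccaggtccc
Rgs16, chr1:153740103-153740302, plus strand: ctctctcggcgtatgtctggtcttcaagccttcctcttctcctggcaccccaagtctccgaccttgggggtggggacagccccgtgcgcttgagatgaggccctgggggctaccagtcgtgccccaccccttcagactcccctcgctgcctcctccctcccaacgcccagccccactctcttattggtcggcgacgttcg
The Rgs2 window held TGACG 2 times, in opposite orientations, the first of them beginning at base 66. It held neither TGACGTCA nor the AP-1 motif TGANTCA. The Rgs16 window held none of the 3 motifs. Over 32851 RefSeq promoter windows of the same length, 12.7% had TGACG, 0.828% TGACGTCA and 5.57% TGANTCA, on either strand. The windows of Rgs3, Rgs10 and Rgs19 had no match to any of the 3 motifs. A match is a description of the letters and not a site of binding.

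The first comparison asked whether the RGS genes differed between organs over all sorted cells. UMIs were summed per library and tested with edgeR's quasi-likelihood test, and p-values were adjusted by Benjamini-Hochberg over all 10172 genes that passed the low-count filter. Between liver and lymph node 6 of the 7 genes changed, beside 37.6% of all genes tested. Of these, 5 (Rgs1, Rgs2, Rgs10, Rgs16 and Rgs19) were higher in lymph node, a direction taken by 19.6% of all genes, and Rgs3 was higher in liver, as were 18% of all genes. Between spleen and lymph node 5 of 7 changed, beside 18.3% of all genes. Rgs1, Rgs2, Rgs10 and Rgs16 were higher in lymph node (10.3% of all genes) and Rgs3 in spleen (7.98% of all genes). Between liver and spleen only Rgs3 passed, 1 of 7 beside 25.7% of all genes. The median log2 fold change of the 7 genes was −0.43 for liver over lymph node, −0.56 for spleen over lymph node and 0.13 for liver over spleen, where that of all genes tested lay between 0.0046 and 0.019. The counts against lymph node include Rgs16, which passed the filter largely through the lymph node libraries. The comparisons with lymph node share those libraries and are not independent of each other.

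**Figure D1:**
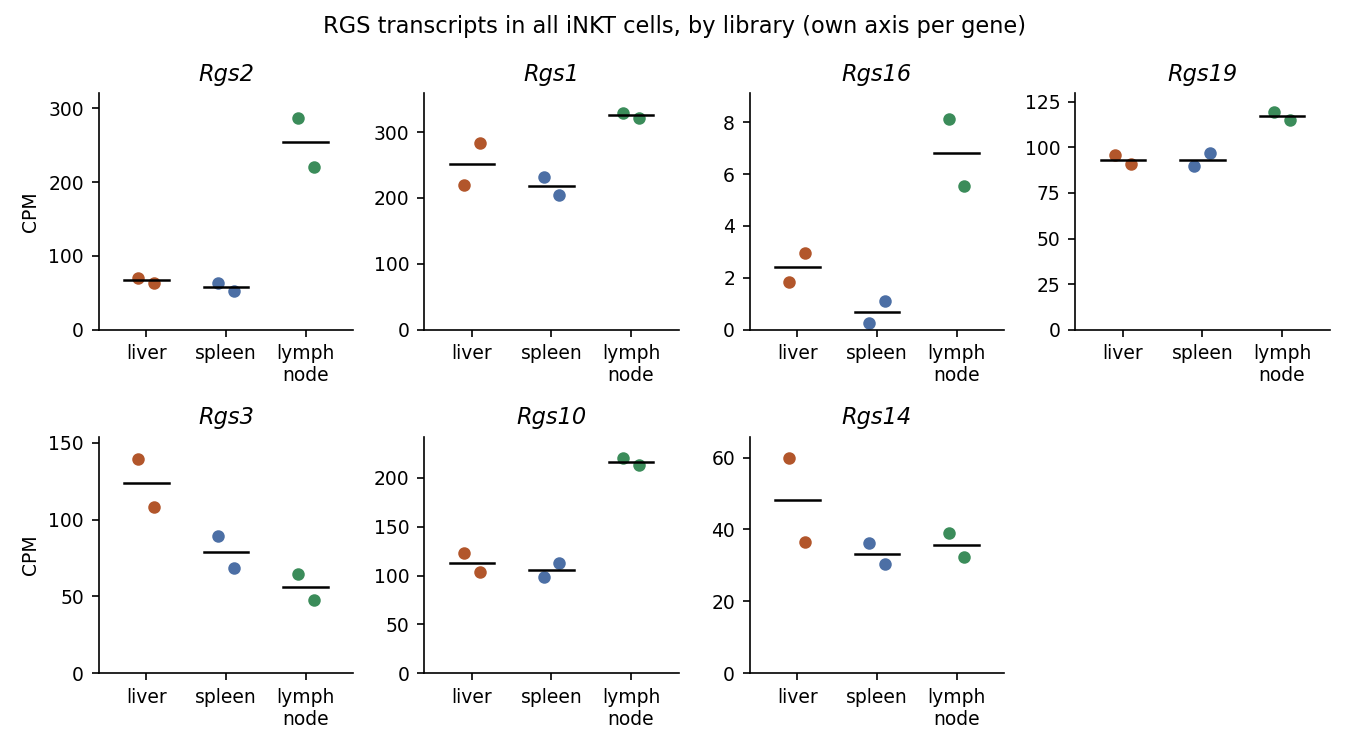
Level of each of the 7 RGS genes in CPM (vertical axis, linear and separate for each gene) in the 6 libraries, summed over all cells, with 1 point per library and a line at the mean of each organ (n = 2). Both lymph node points of Rgs2, at 287 and 219.95, stand above the 4 liver and spleen points, of which the highest is 69.8, and the liver points of Rgs3 stand above those of the other organs.

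Rgs2 is a small RGS protein with a preference for the Gq type of alpha subunit and is known as an early response gene of activated T cells. It was at 69.8 and 63.9 CPM in the liver libraries, at 63.8 and 52.6 in spleen, with the lymph node libraries at 287 and 219.95. Liver and spleen lay close together and lymph node stood apart from both. The log2 fold change was −1.98 (SE 0.13, adjusted p = 8.5e-14) for liver over lymph node, or 3.94-fold. For spleen over lymph node it was −2.10 (SE 0.14, adjusted p = 1.6e-13), or 4.29-fold. The call against lymph node held under every alternative setting run on all cells, with log2 values from −2.16 to −1.59 against liver and from −2.30 to −1.74 against spleen. Liver over spleen was 0.12 with a 95% interval of −0.17 to 0.41 (adjusted p = 0.56).

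More cells of the lymph node had a UMI of Rgs2, also at an equal number of UMIs per cell, called equal depth here. The share of cells with at least 1 UMI was 14.8% and 12.0% in liver, 7.95% and 6.44% in spleen, with the lymph node libraries at 28.4% and 21.5%. After each cell was thinned to 1000 UMIs, it was 4.36% and 4.56% in liver, 4.18% and 3.70% in spleen, while the lymph node libraries had 17.9% (exact binomial 95% interval 16.4% to 19.5%) and 15.3% (13.8% to 16.8%). Thinning removed the gap between liver and spleen, which differ in UMIs per cell, and kept that to lymph node. It left out 0 and 9 cells in liver, 144 and 169 in spleen and, from the lymph node, 265 and 488 as too shallow, and these intervals cover counting error alone. No cell class in these libraries is known to lack Rgs2, so the share that free RNA gives could not be measured.

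The immediate early genes were higher in lymph node, as Rgs2 was. Between liver and spleen, where Rgs2 was not called, 2 of the 19 tested were higher in liver (12.7% of all genes) and 6 in spleen (13% of all genes), such as Fos (−1.24, adjusted p = 1.1e-05). Cells with a UMI of Fos, Egr1 or Nr4a1 made up 5.84% to 7.93% of each liver and spleen library and 49.2% and 46.5% of the lymph node libraries. Within the lymph node, Rgs2 was at 307 CPM in the 1088 cells with a Fos UMI and 272 in the 1550 cells without in library 1, and at 226 and 215 in library 2. The 2 kinds of cell thus differed little beside the gap between organs. Without any cell that had a UMI of Fos, Egr1 or Nr4a1, the log2 fold change of liver over lymph node was −1.94 (adjusted p = 1.6e-14), and that of spleen was −2.08 (adjusted p = 1.9e-14). A UMI of these genes marks only some of the cells that carry the transcripts, so the cells left may still hold them.

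Rgs1 dampens chemokine receptor signals in lymphocytes and is abundant in activated and tissue-resident T cells. It was at 219.6 and 283 CPM in liver, 232 and 204 in spleen, and the lymph node libraries were at 329 and 322. The lymph node values were the highest, and those of liver and spleen overlapped. Liver over lymph node had a log2 fold change of −0.43 (SE 0.12, adjusted p = 0.0069), and spleen over lymph node one of −0.56 (SE 0.13, adjusted p = 0.0016). The liver call was lost without liver replicate 1 (−0.22, adjusted p = 0.20) and without lymph node replicate 1 (−0.40, adjusted p = 0.062). Without cluster 2, which held 1320 and 1328 of the lymph node cells, both calls were lost, at −0.18 (adjusted p = 0.28) and −0.33 (adjusted p = 0.080), an alternative chosen after seeing the data. Cells with a UMI of Fos, Egr1 or Nr4a1 were 42.3% and 40.6% of the lymph node cells in that cluster and 56.0% and 51.7% of those outside it. At equal depth, 13.1% and 16.1% of liver cells, 14.8% and 14.8% of spleen cells, and 19.0% and 18.1% of lymph node cells had a UMI of Rgs1.

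Lymph node cells with an Rgs1 UMI had an Rgs2 UMI more often than those without, in both libraries. In thinned cells of lymph node library 1, 24.6% of those with an Rgs1 UMI and 16.3% of those without one had an Rgs2 UMI, and in library 2 these shares were 21.0% and 13.98%. In liver and spleen the shares were 3.53% to 5.74% and 3.73% to 4.51%. They lay on both sides of each other there, with no common direction over the 4 libraries, and in spleen library 1 they were 5.74% and 3.91%. Only 15 and 22 thinned cells of liver and 22 and 13 of spleen had both, against 111 and 90 of lymph node. A difference like that of lymph node could therefore hardly be seen in liver and spleen.

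Rgs16 is an inducible regulator of chemokine receptor signals in T cells. It was scarce, with 13 and 18 UMIs from liver, 1 and 4 from spleen and 30 and 20 from lymph node, or 1.84, 2.97, 0.26, 1.12, 8.12 and 5.53 CPM in the same order. Lymph node was highest and spleen lowest, with no overlap between any 2 organs. The filter asked for 2.65 CPM in enough libraries, and 2 libraries of lymph node, 1 of liver and 0 of spleen were above it. The gene thus passed largely through the lymph node, where it had to be higher than in spleen. Against liver the filter favoured the same direction without fixing it. The log2 fold change was −1.57 (SE 0.41, adjusted p = 0.0028) for liver over lymph node and −3.27 (SE 0.60, adjusted p = 1.0e-04) for spleen over lymph node. As sums over the organ, 50 UMIs in lymph node against 31 in liver gave a ratio of 2.89 (counting interval 1.81 to 4.69), and 50 against 5 in spleen gave 10.1 (4.07 to 32.6). The difference from liver was not called without liver replicate 1 (−1.22, adjusted p = 0.077) or lymph node replicate 1 (−1.25, adjusted p = 0.11), nor by DESeq2 (adjusted p = 0.10). That from spleen kept its call with a library left out but ranged from −4.58 without spleen replicate 2 to −2.54 without spleen replicate 1. Without cluster 2 the gene did not pass the filter and was not tested.

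Rgs3, which comes in several forms, some of which also bind beta and gamma subunits, ran the other way. It was at 139 and 108 CPM in liver, 89.6 and 68.6 in spleen, and the lymph node libraries were at 64.9 and 47.9. No 2 organs overlapped, and the order was liver, spleen, lymph node. Its log2 fold change was 1.08 (SE 0.15, adjusted p = 4.5e-06) for liver over lymph node, 0.57 (SE 0.15, adjusted p = 0.0064) for liver over spleen, and 0.51 (SE 0.16, adjusted p = 0.029) for spleen over lymph node. The call between liver and spleen was lost without liver replicate 1 (0.42, adjusted p = 0.097) or spleen replicate 2 (0.41, adjusted p = 0.10). That between spleen and lymph node was lost without spleen replicate 1 (0.33, adjusted p = 0.26) or lymph node replicate 2 (0.29, adjusted p = 0.39), with DESeq2 (adjusted p = 0.10), and without cells with a UMI of Fos, Egr1 or Nr4a1 (0.32, adjusted p = 0.25). Without cluster 2 the differences from lymph node were larger, at 1.68 for liver (adjusted p = 5.1e-08) and 1.12 for spleen (adjusted p = 8.9e-05). After thinning, 9.07% and 6.28% of liver cells had a UMI of Rgs3, against 6.62% and 5.43% in spleen, while lymph node had 4.55% and 3.35%.

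Rgs10 is a small protein that acts on inhibitory alpha subunits. It was at 123 and 103 CPM in liver, 98.4 and 113 in spleen, with the lymph node libraries at 220.0 and 214. Liver and spleen overlapped, with lymph node above both. Its log2 fold change was −0.996 (SE 0.12, adjusted p = 3.5e-08) for liver over lymph node and −1.01 (SE 0.12, adjusted p = 1.0e-07) for spleen over lymph node, or 1.99-fold and 2.02-fold, and 0.02 (95% interval −0.23 to 0.27) for liver over spleen. At equal depth, 6.89% and 6.87% of liver cells, 6.15% and 7.16% of spleen cells, and 13.5% and 15.1% of lymph node cells had a UMI.

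Rgs19, also known as GAIP, was at 95.8 and 91.0 CPM in liver, 89.6 and 96.9 in spleen, against 119.6 and 115 in lymph node. It was higher in lymph node than in liver by a small margin (log2 −0.38, SE 0.12, adjusted p = 0.011). This call was lost without lymph node replicate 1 (−0.34, adjusted p = 0.097), without cluster 2 (−0.29, adjusted p = 0.082) and with DESeq2 (adjusted p = 0.062), and spleen over lymph node was not called (−0.31, adjusted p = 0.081). Rgs14, which carries Ras-binding and GoLoco domains besides its RGS domain, was at 59.9 and 36.5 in liver, 36.2 and 30.2 in spleen, against 39.0 and 32.4 in lymph node. No contrast of it was called in the main fit. Liver over spleen was called without TMM scaling (0.54, adjusted p = 0.047) and without the low-count filter (0.50, adjusted p = 0.012). It was also called without cells with a UMI of Fos, Egr1 or Nr4a1 (0.51, adjusted p = 0.042). Liver over lymph node was called without the low-count filter (0.42, adjusted p = 0.030). Liver replicate 1 stood above the other 5 libraries, and without liver replicate 2 Rgs14 was higher in liver than in spleen (0.76, adjusted p = 0.0027) and lymph node (0.67, adjusted p = 0.0038).

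The organs hold different classes of iNKT cell, so the levels were next taken class by class. Clusters were named from marker lists, with the RGS genes left out of the clustering, and the names were rebuilt here and may differ from those of the study. iNKT1-like cells, which express Tbx21 and Ifng and resemble natural killer cells, made up 75.2% and 66.1% of liver cells, 67.0% and 69.4% of spleen cells, and 24.98% and 26.0% of lymph node cells. iNKT17-like cells, which express Il23r, were 0.93% to 1.91% of liver and spleen cells and 32.6% and 35.6% of lymph node cells. iNKT2-like cells, a type that makes interleukin-4, were 14.1% and 10.99% of the lymph node libraries. A further 15.5% of each lymph node library stayed unnamed. The iNKT1-like share of the lymph node depended on the clustering. At Leiden resolution 1.0, clusters 0 and 1 alone had that name, with 25 and 42 and with 35 and 46 cells of the lymph node libraries. When each class was given its mean share over the 6 libraries, mean Rgs2 over liver, spleen and lymph node was 63.9, 64.9 and 267 CPM, against 66.9, 58.2 and 254 unweighted. The order of liver and spleen turned for Rgs1, from 251 and 218 unweighted to 191 and 227 weighted, with lymph node at 376. The weighted values also use classes with few cells, such as the 5 and 6 iNKT2-like cells of liver and 14 and 2 of spleen. Weighted Rgs10 was at 88.5 and 156 in the spleen libraries, against 98.4 and 113 unweighted.

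Within iNKT1-like cells, RGS genes again differed between organs. Between liver and lymph node 6 of 7 genes changed, beside 20.8% of all 9186 genes tested, and 5 of them were higher in lymph node (11.8% of all genes). Between spleen and lymph node 5 of 7 changed, beside 7.9% of all genes, and all 5 were higher in lymph node (5.21% of all genes). Both counts include Rgs16, which passed the filter through the lymph node libraries alone and had to be higher there, and without it they are 5 of 6 and 4 of 6. Between liver and spleen 4 of 7 changed, beside 23.9% of all genes. However, liver cells of this class were mostly of cluster 0 and spleen cells mostly of cluster 1. The lymph node cells came largely from a part of cluster 2 with 1194 cells, whose leading genes over all other cells included Dusp1, Nr4a2, Maff and Junb, which are immediate early or stress genes. That part was named iNKT1-like from its markers against the rest of cluster 2 only, where their median log2 fold was 1.23. The iNKT2-like cells were another part of cluster 2, named in the same way. Over all other cells, the median log2 fold of the whole of cluster 2 was −0.81 for iNKT1 markers and 0.75 for iNKT2 markers. Clusters 0 and 1 were named against all other cells, so comparisons with lymph node in this class are not between cells named alike. At Leiden resolution 1.0 the parts of a similar cluster stayed unnamed, the larger with 527 and 583 lymph node cells.

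**Figure D2:**
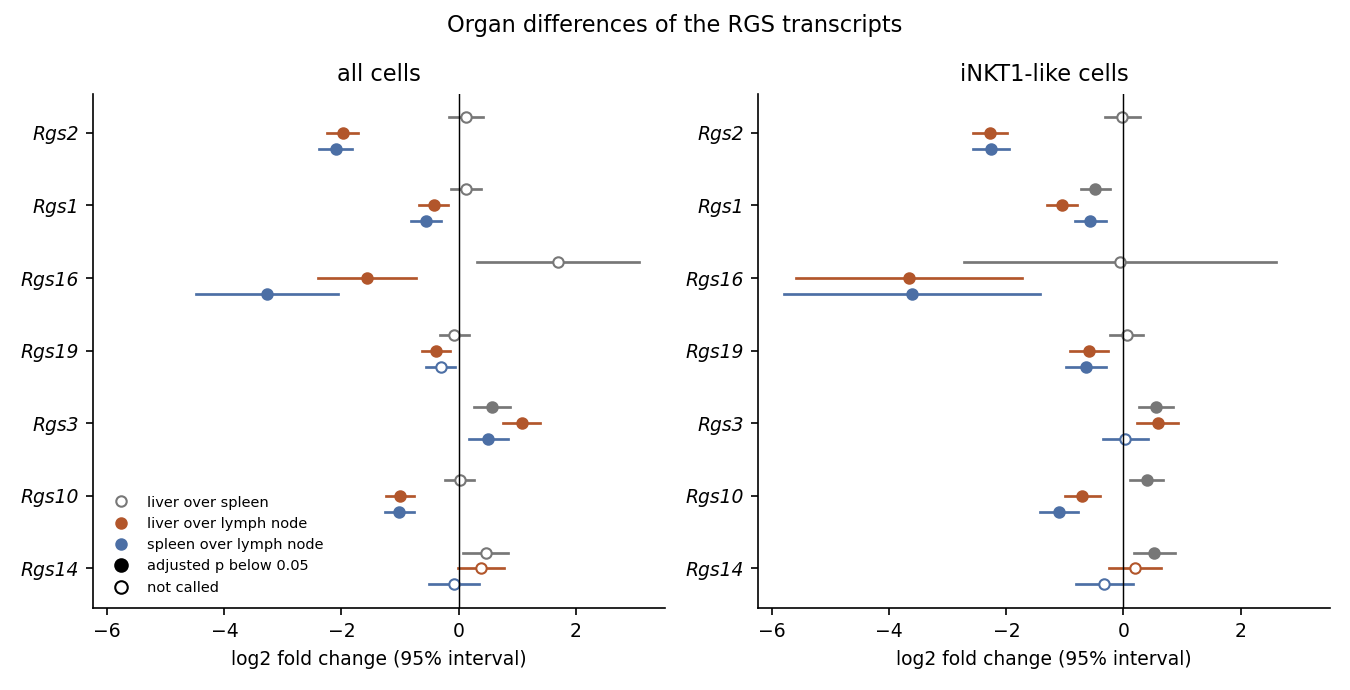
Log2 fold change of the 7 RGS genes (points, with bars for the 95% interval) for the 3 pairs of organs, in all cells and in iNKT1-like cells, with filled points where the adjusted p was below 0.05. Positive values mean higher in the first organ named, and Rgs2 lies near −2 in both comparisons with lymph node and near 0 between liver and spleen.

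Rgs2 in iNKT1-like cells was at 70.7 and 63.9 CPM in liver, 73.6 and 55.0 in spleen, with the lymph node libraries at 335 and 280.04. Liver and spleen overlapped and lymph node was again apart. The log2 fold change was −2.28 (SE 0.15, adjusted p = 2.5e-27) for liver over lymph node and −2.27 (SE 0.16, adjusted p = 8.6e-25) for spleen over lymph node. Without the part of cluster 2 the values were −1.62 (adjusted p = 9.0e-09) and −1.61 (adjusted p = 6.5e-08), so that Rgs2 was also higher in the iNKT1-like cells of the lymph node that lay in the liver and spleen clusters. No other RGS gene was called against lymph node in that setting, in which Rgs16 was not tested. The setting was added after seeing the data and left far fewer lymph node cells.

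Rgs1 in iNKT1-like cells was at 208 and 245 in liver, 318 and 279.9 in spleen, and lymph node had 414 and 464, and no 2 organs overlapped. The log2 fold change was −1.05 (SE 0.13, adjusted p = 1.2e-10) for liver over lymph node, −0.57 (SE 0.13, adjusted p = 0.0014) for spleen over lymph node, and −0.48 (SE 0.13, adjusted p = 0.0022) for liver over spleen. The call between liver and spleen was lost without liver replicate 1 (−0.33, adjusted p = 0.10), without spleen replicate 1 (−0.42, adjusted p = 0.063) and with libraries thinned to equal totals (adjusted p = 0.072). That between spleen and lymph node was lost without spleen replicate 2 (−0.50, adjusted p = 0.061) and without lymph node replicate 2 (−0.50, adjusted p = 0.086). Without the part of cluster 2, Rgs1 was at −0.31 against liver (adjusted p = 0.43) and turned to 0.17 for spleen over lymph node (adjusted p = 0.81).

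Rgs10 in iNKT1-like cells was at 120.5 and 102 in liver, 81.8 and 77.6 in spleen, and lymph node had 175 and 164. The organs were in the order spleen, liver, lymph node without overlap. Log2 fold changes were −0.70 (SE 0.15, adjusted p = 0.00017) for liver over lymph node, −1.10 (SE 0.16, adjusted p = 5.5e-08) for spleen over lymph node, and 0.40 (SE 0.14, adjusted p = 0.030) for liver over spleen. The last of these was lost without liver replicate 1 (0.31, adjusted p = 0.23), without spleen replicate 1 (0.41, adjusted p = 0.13), without spleen replicate 2 (0.39, adjusted p = 0.16) and with DESeq2 (adjusted p = 0.20). Liver over spleen was also not called with libraries thinned to equal totals (0.26, adjusted p = 0.44) and at Leiden resolution 0.3 (0.33, adjusted p = 0.067). The calls against lymph node were lost without the part of cluster 2, at −0.20 (adjusted p = 0.79) and −0.59 (adjusted p = 0.34).

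Rgs3 in iNKT1-like cells was at 152 and 116 in liver, 92.7 and 80.0 in spleen, while lymph node had 104 and 63.8. The lymph node libraries lay on either side of the spleen ones, and liver was above both organs. Liver exceeded spleen (log2 0.55, SE 0.15, adjusted p = 0.0028) and lymph node (0.58, SE 0.18, adjusted p = 0.011), whereas spleen over lymph node was 0.03 (95% interval −0.35 to 0.41). The liver differences were lost without liver replicate 1 (0.38, adjusted p = 0.11, and 0.41, adjusted p = 0.15). That from spleen was also lost without spleen replicate 2 (0.48, adjusted p = 0.064), and that from lymph node without lymph node replicate 2 (0.26, adjusted p = 0.52). Without the part of cluster 2, liver over lymph node was 0.80 (adjusted p = 0.10) and no longer called. DESeq2 called neither (adjusted p = 0.10 and 0.14).

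Rgs19 in these cells was at 97.7 and 89.6 in liver, 78.2 and 92.3 in spleen, and 132 in each lymph node library. The log2 fold change was −0.59 (SE 0.16, adjusted p = 0.0041) for liver over lymph node and −0.64 (SE 0.17, adjusted p = 0.0058) for spleen over lymph node. The latter was lost without spleen replicate 1 (−0.49, adjusted p = 0.16), lymph node replicate 1 (−0.63, adjusted p = 0.066) or lymph node replicate 2 (−0.66, adjusted p = 0.057), and DESeq2 called neither (adjusted p = 0.066 and 0.11). Rgs14 was higher in liver than in spleen (0.53, SE 0.18, adjusted p = 0.021), at 63.0 and 44.1 against 38.2 and 32.4. That call was lost without liver replicate 1 (0.28, adjusted p = 0.43), without spleen replicate 2 (0.45, adjusted p = 0.19) and with DESeq2 (adjusted p = 0.30). The Rgs14 call was also lost with libraries thinned to equal totals (0.33, adjusted p = 0.50) and at Leiden resolution 1.0 (0.44, adjusted p = 0.089). Rgs16 rested on 2 and 2 UMIs in liver, 0 and 2 in spleen and, in the lymph node libraries, 5 and 4, and its calls carry the limit given above. Without spleen replicate 1 its call against spleen was lost (−2.59), and liver over lymph node was −3.66. With any other library left out, Rgs16 was not tested in these cells. As sums, 9 against 4 UMIs gave a ratio of lymph node to liver of 13.1 (counting interval 3.66 to 58.3), and 9 against 2 a ratio to spleen of 13.3 (2.75 to 126). These ratios carry the same limit as the calls.

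The iNKT17-like class could be compared between organs only from few liver and spleen cells, 26, 34, 52 and 36 against 859 and 1015 in lymph node. Rgs1, Rgs2 and Rgs10 were the 3 genes of 7 that passed the filter there, Rgs1 and Rgs2 through the lymph node libraries alone, where they had to be higher, so that their count adds no support. In this class 2 of the 3 changed between liver and lymph node, beside 15.1% of the 1900 genes tested, and the same count changed between spleen and lymph node, beside 5.37%, in each case Rgs1 and Rgs2 with higher levels in lymph node (7.11% and 3.32% of all genes). None changed between liver and spleen by edgeR's quasi-likelihood test, beside 3% of all genes, with 0 at an unadjusted p below 0.05 and 0 by DESeq2.

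Rgs1 in iNKT17-like cells had 3 and 6 UMIs in liver, 8 and 4 in spleen and, from the many lymph node cells, 356 and 388, or 36.0, 77.2, 89.0, 67.1, 278 and 285 CPM. Its log2 fold change was −2.33 (SE 0.38, adjusted p = 4.3e-06) for liver over lymph node and −1.87 (SE 0.35, adjusted p = 0.00021) for spleen over lymph node. Rgs2 in these cells had 7 and 2 UMIs in liver, 2 and 3 in spleen and, from lymph node, 309 and 252, or 84.1, 25.7, 22.3, 50.3, 241 and 185 CPM. Its log2 fold changes were −1.93 (SE 0.42, adjusted p = 0.00064) against liver and −2.72 (SE 0.50, adjusted p = 0.00014) against spleen, the former lost without liver replicate 2 (−1.37, adjusted p = 0.058) and the latter without spleen replicate 1 (−2.12, adjusted p = 0.064). They were larger without the other library of each organ, at −3.05 without liver replicate 1 and −3.33 without spleen replicate 2, and the spleen value was −4.57 without cells with a UMI of Fos, Egr1 or Nr4a1. The liver value of Rgs1 was −2.99 without liver replicate 2. Rgs10 was at 204 and 257 CPM in liver, 122 and 168 in spleen, while lymph node had 191 and 179.9. Here the lymph node lay between the other organs, unlike in iNKT1-like cells, and no contrast was called (liver over lymph node 0.30, 95% interval −0.23 to 0.84).

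Whether an organ effect differed between iNKT1-like and iNKT17-like cells was tested as an interaction over 9063 genes, with the library as a block, and 6 of the 7 RGS genes entered. For spleen against lymph node 1 gene passed, Rgs1, beside 0.607% of all genes. Its log2 fold change was 1.42 higher in iNKT1-like than in iNKT17-like cells (SE 0.38, 95% interval 0.67 to 2.18, adjusted p = 0.041), that is, a smaller deficit in spleen. This call was lost on leaving out any of the 4 spleen and lymph node libraries, with estimates of 1.38 to 1.62 and adjusted p of 0.11 to 0.60. For liver against lymph node no RGS gene passed edgeR's test, beside 1.06% of all genes, with Rgs1 at 1.46 (adjusted p = 0.068), 3 of the 6 at an unadjusted p below 0.05. For liver against spleen no RGS gene passed either, beside 0.199% of all genes, with 0 at an unadjusted p below 0.05. The difference in Rgs10 between the classes did not pass (liver against lymph node −0.82, adjusted p = 0.26).

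**Figure D3:**
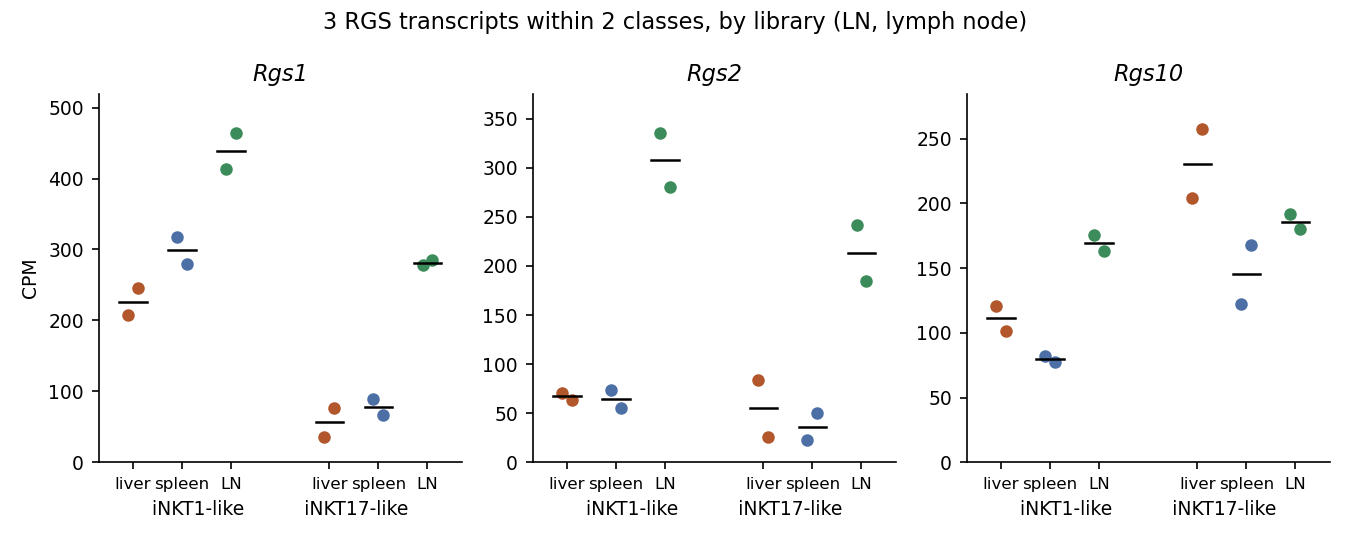
Levels of Rgs1, Rgs2 and Rgs10 in CPM (vertical axis) in iNKT1-like and iNKT17-like cells of each library, with lines at the mean of each organ (n = 2). In iNKT17-like cells Rgs1 and Rgs2 of liver and spleen lie at or below 89.0 while lymph node lies at 185 or more, and Rgs10 of the lymph node lies between the spleen and liver values.

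The other classes are described by their levels, without a test. Rgs1 was low in cells like recent thymic emigrants (RTE-like cells, which express Ccr7, S1pr1 and Klf2) in liver and spleen, at 95.7, 67.0, 67.0 and 68.0, and was at 154 and 223 in those of the lymph node. Most of these lymph node cells were of cluster 9 and the others of cluster 4. In cluster 4 alone, Rgs1 was at 119 and 155 in lymph node, from 11 UMIs each, against 67.0 to 97.3 in liver and spleen. It was high in interferon-response (Ifit-like) cells, at 398 and 573 in liver, 420.0 and 180.2 in spleen, against 572 and 427 in lymph node. Spleen library 2 was apart from the others. Liver and spleen NF-kB-like cells, which are marked by targets of that factor such as Nfkbia, had 341, 506, 314 and 340.05. Rgs1 thus spanned a several-fold range within each organ.

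In each class with at least 30 cells in lymph node and in another organ, both lymph node values of Rgs2 were above all those of liver and spleen. RTE-like cells had 177 and 144 in lymph node against 47.7 to 63.8 elsewhere, Ifit-like cells 248 and 166 against 42.0 to 68.2, and cycling cells 138 and 97.9 against 16.3 to 47.7. In cluster 4 alone, the RTE-like cluster found in all organs, Rgs2 was at 163 and 70.3 in lymph node (15 and 5 UMIs) against 47.9 to 64.9, a narrower gap. iNKT2-like cells, frequent enough only in lymph node, had 374 and 294. Outside the lymph node the highest Rgs2 was in Gzma-like cells, which express the protease gene Gzma and natural killer receptors, at 113 and 136 in liver and 113 and 159.7 in spleen.

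**Figure D4:**
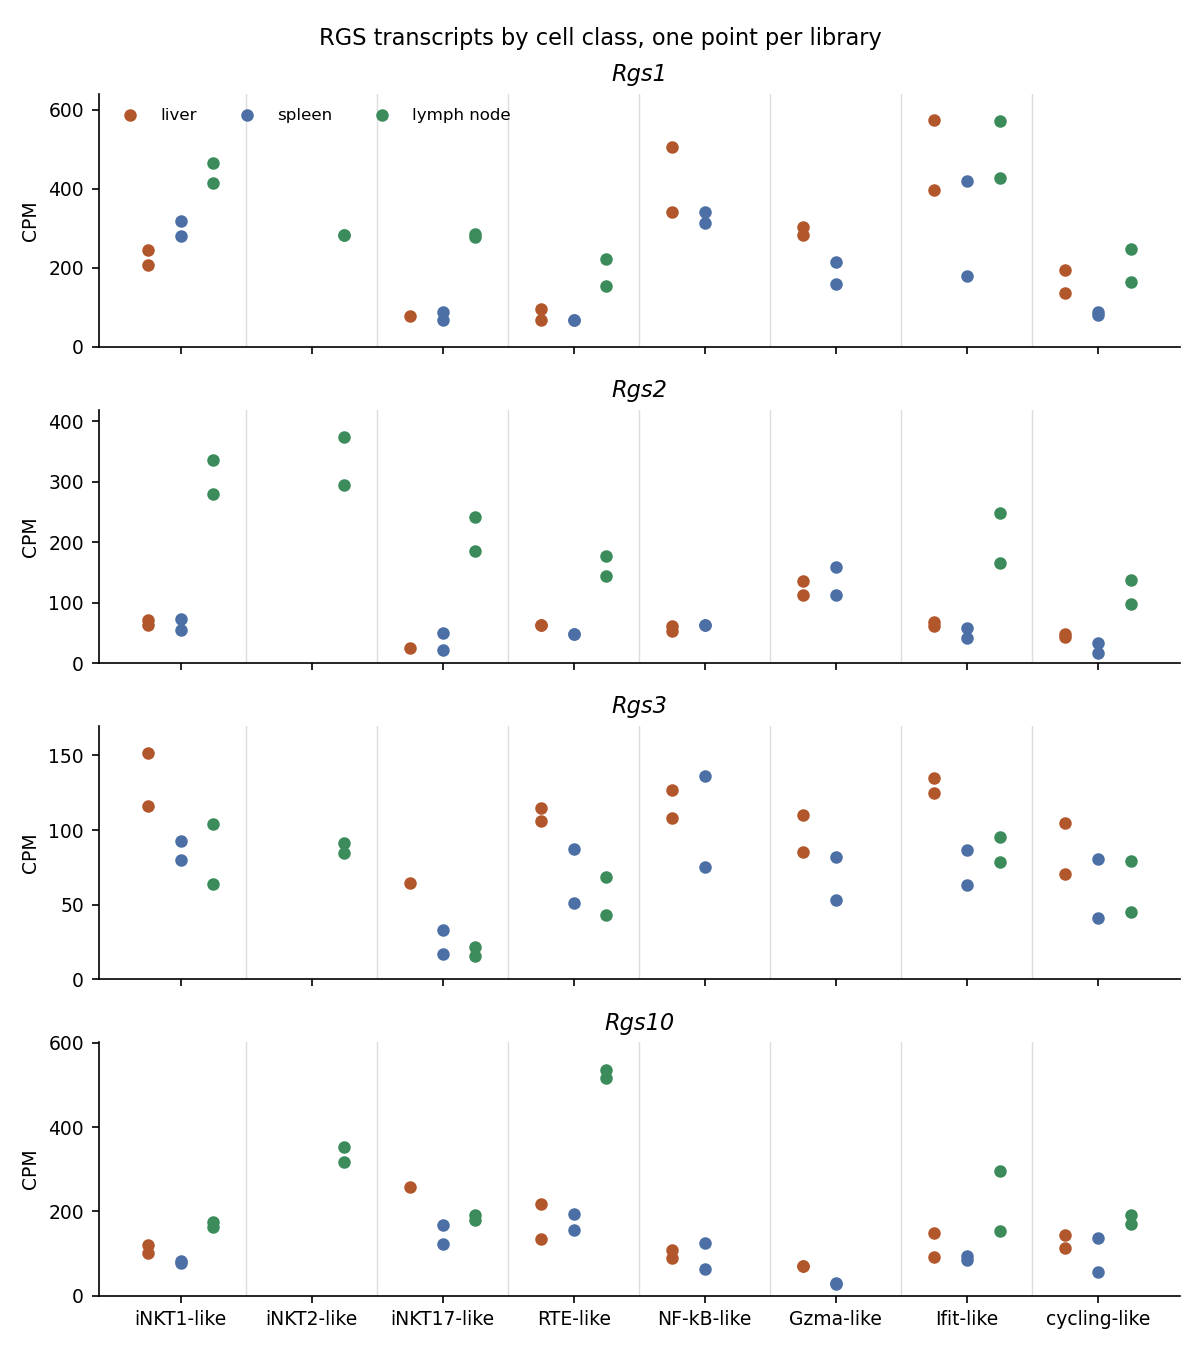
Levels of Rgs1, Rgs2, Rgs3 and Rgs10 in CPM (vertical axis) by cell class, with 1 point for each library that had at least 30 cells of the class, coloured by organ. Rgs2 of the lymph node lies above liver and spleen in each shared class, Rgs3 is low in iNKT17-like cells of spleen and lymph node, and Rgs10 is highest in RTE-like cells of lymph node at 537 and 518.

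Rgs3 was lowest in iNKT17-like cells of the lymph node, at 21.9 and 15.4, against 104 and 63.8 in iNKT1-like and 91.5 and 84.4 in iNKT2-like cells of the same libraries. In spleen, iNKT17-like cells were also low, at 33.4 and 16.8 from few cells (3 and 1 UMIs), whereas the few of liver had 72.0 and 64.3 (6 and 5 UMIs). These cells were a large share of the lymph node and rare elsewhere. With each class at its mean share, mean Rgs3 over liver, spleen and lymph node was 118, 80.1 and 74.5 CPM, against 124, 79.1 and 56.4 unweighted, so the spleen and lymph node values drew together.

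Rgs10 was highest in RTE-like cells of the lymph node, at 537 and 518, against 218 and 134 in liver and 156 and 194 in spleen. Clusters 4 and 9 carried that name. In cluster 4, present in all organs, Rgs10 was at 222 and 134 in liver, 153 and 194 in spleen, against 228 and 281 in lymph node, from 50 cells each. In cluster 9, whose leading genes include Dapl1 and Ccr7 and which held 82 and 77 lymph node cells and at most 4 cells in any other library, it was at 882 and 765, so the high value of the class comes with that cluster. iNKT2-like cells of the lymph node followed at 318 and 352. The lowest levels of a named class were in Gzma-like cells, at 71.5 and 69.5 in liver and 30.8 and 26.6 in spleen.

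Most Rgs16 UMIs came from different classes in liver and lymph node, and the sizes of these classes also differed. In liver, 24 of its 31 UMIs (77.4%) came from NF-kB-like cells, where 16 of 608 cells (2.63%) had a UMI. In lymph node, 32 of 50 UMIs (64%) came from iNKT2-like cells, where 26 of 685 cells (3.80%) had one. The share of NF-kB-like cells with a UMI was close to that of liver, at 1 of 39 cells (2.56%). Liver had only 11 iNKT2-like cells, too few to compare, with 0 UMIs. The 5 spleen UMIs were spread over RTE-like, iNKT1-like and NF-kB-like cells. NF-kB-like cells were 9.18% and 12.3% of liver but at most 1.87% of the other libraries. Rgs19 lay between 50.4 and 166 over the named classes with at least 30 cells apart from 44.5 and 180.06 in small iNKT17-like groups, and Rgs14 ran from 5.45 in cycling cells of a spleen library (2 UMIs) to 82.6 in Ifit-like cells of a lymph node library (13 UMIs). Rgs14 had no UMI in the 34 iNKT17-like cells of a liver library, which allows a level of up to 38.6 CPM.

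Genes with the most similar pattern were sought over the 44 sums of library and class with at least 30 cells, by Pearson's r of log2(CPM + 1), as a description over points that share libraries and depth. The closest to Rgs2 were the AP-1 and early response genes Junb (0.82), Ier2 (0.82) and Jund (0.81). Closest to Rgs1 were Sdhaf1 (0.74), Nfkbia (0.73) and Cd69 (0.72), the last an early activation marker that holds T cells in tissue. Rgs3 was closest to Inpp4b (0.84), Cxcr3 (0.81), a chemokine receptor of iNKT1 cells, and Traf1 (0.80). Rgs14 ran with Rnf11 (0.87), Prdm2 (0.86) and Rrnad1 (0.83), and Rgs10 with Ifngr2 (0.74), A530021J07Rik (0.71) and Nucb2 (0.71). Rgs16 was nearest to Il21, Wnt10a (0.67 each) and Spry1 (0.66), on few UMIs, and Rgs19 to B4galt7 (0.72), Mkl1 (0.68) and Tra2a (0.67). Among the RGS genes themselves the highest r was 0.55, between Rgs1 and Rgs2.

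Other parts of the same pathway also differed between organs in all cells. Of all genes tested, 12.7% were higher in liver than in spleen and 13% higher in spleen. Against lymph node these shares were, as given above, 18% higher in liver and 19.6% in lymph node, and 7.98% higher in spleen and 10.3% in lymph node, and the counts below stand beside them. Of the 14 other RGS genes listed, 2 passed the filter, Rgs11 at 0.56 to 2.97 CPM and Rgs12 at 3.13 to 8.02. In each pair of organs 0 were called by edgeR and 0 by DESeq2, and at an unadjusted p below 0.05 edgeR had both for liver over spleen and 1 for spleen over lymph node. Rgs18, which did not pass, was at 0 to 4.96, and 10 of the 14 had no UMI in any library. Among the alpha subunits, the direct substrates of RGS proteins, 5 of 8 tested were higher in liver than in spleen and 0 lower (median 0.38). Of these 8, 4 were higher in lymph node than in spleen and 0 lower (median −0.37), among them Gnaq (−1.67, adjusted p = 3.3e-05) and Gnai2 (−0.90, adjusted p = 6.6e-07). Against liver, 3 were higher in lymph node, with Gnaq at −2.16 (adjusted p = 6.3e-08) and Gnai2 at −0.53 (adjusted p = 0.00064), and 2 in liver, Gna15 at 0.92 and Gna11 at 0.85. Gnaq encodes the alpha subunit that Rgs2 acts on, and Gnai2 the main inhibitory one of lymphocytes. Both were higher in lymph node over all cells, as Rgs2 was. Within iNKT1-like cells Gnai2 was again higher in lymph node, at −0.50 against liver and −0.98 against spleen. Gnaq was not among the alpha subunits called against lymph node in that class, whereas Rgs2 was called there.

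Of 8 beta and gamma subunits tested, 3 were higher in lymph node than in liver, with Gnb1 at −1.19, Gnb4 at −1.18 and Gng10 at −0.83, and 2 were higher in liver, with Gng2 at 0.81. Against spleen, 2 were higher in lymph node, Gnb1 at −1.03 and Gng2 at −0.81, and Gngt2 was higher in spleen at 0.56. Between liver and spleen Gng2 was higher in liver at 1.62 and Gng10 in spleen at −1.14. Of 26 receptors tested, 12 were higher in lymph node and 8 in liver, among the former Ccr6 (−6.23), Ccr8 (−4.70) and Ccr10 (−4.14). Against spleen, 10 receptors were higher in lymph node and 8 in spleen, among them Ccr8 (−6.17), Ccr6 (−5.65) and, higher in spleen, Ccr9 (2.28). Ccr6 is a marker of iNKT17-like cells, whose share differs between these organs. Between liver and spleen 6 were higher in liver and 9 in spleen, including Ccr10 (−2.09), Ccr7 (−1.68), S1pr1 (−1.08) and Gpr183 (−1.02).

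Of 21 other regulators and effectors of G protein signals, 9 were higher in liver than in lymph node, such as Pik3r5 (1.74), a subunit of a lipid kinase driven by beta and gamma subunits, and Gpsm2 (1.25). Another 3 were higher in lymph node, among them Plcb4 (−2.01), a phospholipase that Gq activates, and Gipc1 (−1.15), whose product binds Rgs19. Against spleen, lymph node was higher in 3, among them Plcb4 (−1.60) and the receptor kinase gene Grk6 (−0.99), and lower in 1, Adrbk1 (0.39). Within iNKT1-like cells Grk6 was again higher in lymph node than in spleen (−1.01), and Plcb4 was not called. Between liver and spleen 7 were higher in liver and 0 in spleen, led by Gpsm1 (1.13), Pik3r5 (1.10), Prex1 (0.90) and Adcy7 (0.73). Of the immediate early genes, 16 of 19 were higher in lymph node than in liver (median −1.93) and 18 of 19 higher than in spleen (median −1.74), and the median of liver over spleen was −0.13.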

How the data were processed

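The labels give the molecule as nuclear RNA, and no batch. The deposited tables hold UMI counts per gene and barcode, made by the authors with Cell Ranger 3.1.0 on mm10 and not normalized. Barcodes with 300 to 4000 genes and at most 15% mitochondrial UMIs were kept (16532 of 16587), and 189 ribosomal and haemoglobin genes were set aside. The 2% of cells with the highest Scrublet scores were left out in an alternative only. Cells were clustered with scanpy 1.11.5 (3000 variable genes without the RGS genes, 20 components, 20 neighbours, Leiden resolution 0.5) and named from marker lists. UMIs summed per library, or per library and class with at least 10 cells, were tested in 1 fit over the 6 libraries with edgeR 4.0.16 (filterByExpr, TMM, quasi-likelihood test, Benjamini-Hochberg over all genes tested, calls at an adjusted p below 0.05). Fits were tested on simulated counts. DESeq2 1.42.0, other filters, thinning, clusterings and left-out libraries were alternatives. Levels are CPM, UMIs per 1000000 of those kept. Coordinates are from GENCODE vM21, and promoter windows from RefSeq. All 7 RGS genes are named, with at most the 4 largest called changes of each pathway list and the 3 most similar genes, and some genes that this rule gives are not reported here. The RGS genes and the lists were chosen with earlier results of these data known.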

Additional observations from a re-analysis of the deposited data

Results flagged for a closer look

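The effect of organ on Rgs1 differed between 2 cell classes. For spleen over lymph node, its log2 fold change was 1.42 higher in iNKT1-like than in iNKT17-like cells (edgeR quasi-likelihood test of the interaction, SE 0.38, adjusted p = 0.041). Rgs1 was lower in both spleen libraries than in both lymph node libraries in each of these classes, by −0.57 in iNKT1-like and −1.87 in iNKT17-like cells on the log2 scale. The iNKT1-like value depended on which lymph node cells had that name. It was 0.17 without the part of cluster 2 and −0.035 at Leiden resolution 1.0, neither of them called. In the fit of iNKT17-like cells Rgs1 passed the filter through the lymph node libraries alone. It had to be higher there, so that the −1.87 adds no support. The iNKT17-like value of spleen rests on 8 and 4 UMIs, and the call was lost without any 1 of the spleen or lymph node libraries and without TMM scaling (1.28, adjusted p = 0.12).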

How the results depend on the processing

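The higher Rgs2 in lymph node was the steadiest result, called in all cells and in iNKT1-like cells under every alternative run, although in iNKT1-like cells it was smaller at Leiden resolution 1.0, at −1.56 against liver and −1.45 against spleen. Low UMI counts limited Rgs16 in every organ, few cells limited all RGS genes in iNKT17-like cells of liver and spleen, and with 2 libraries an organ a single library often decided a call. Where a value moved below, the cause was not tested unless the setting itself removed cells, genes or libraries.

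Of the 7 RGS genes, the number called between liver and spleen in all cells went from 1 to 3 without TMM, and to 2 without the low-count filter or without cells with a UMI of Fos, Egr1 or Nr4a1. Without cluster 2, an alternative added after seeing the data, it went from 6 to 3 for liver and lymph node and from 5 to 3 for spleen and lymph node, with Rgs16 not tested, while over all genes calls went from 3827 to 3545 and from 1864 to 1986. In iNKT1-like cells, the number called between liver and spleen went from 4 to 1 with DESeq2 and with libraries thinned to equal totals. For liver and lymph node it went from 6 to 1, and for spleen and lymph node from 5 to 1, at Leiden resolution 1.0 and without the part of cluster 2 (added). Rgs16 was not tested in either setting, so that part of each fall is a missing test. Over all genes, calls fell there as well, from 1907 to 302 and 567 for liver and lymph node and from 726 to 126 and 212 for spleen and lymph node. For spleen and lymph node it was 3 with DESeq2, which gave Rgs16 no adjusted p, and 3 with thinning, where Rgs16 was not tested. In iNKT17-like cells thinning took it from 2 to 1 in each comparison with lymph node. No call was lost among the RGS genes tested there, and 1 gene called in the main fit was not tested. For the interaction, 1 gene in place of 0 was called for liver and lymph node without the low-count filter and at Leiden resolutions 0.3 and 1.0, and 0 in place of 1 for spleen and lymph node without TMM.

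When 1 library was left out, the number called in all cells ranged from 0 to 2 for liver and spleen, from 3 to 7 for liver and lymph node, and from 4 to 5 for spleen and lymph node. In iNKT1-like cells the ranges were 0 to 4, 4 to 6 and 2 to 4, in iNKT17-like cells 0 to 0, 1 to 2 and 1 to 2, and for the interaction 0 to 0, 0 to 1 and 0 to 1. In iNKT1-like cells Rgs16 was tested in only 1 of these fits, that without spleen replicate 1, and so could not be counted in the others. Fold changes that turned sign with a left-out library were all uncalled. In all cells they were liver over spleen of Rgs1 (−0.082 to 0.34), Rgs10 (−0.099 to 0.14) and Rgs19 (−0.15 to 0.0028), and spleen over lymph node of Rgs14 (−0.22 to 0.070). In iNKT1-like cells they were liver over spleen of Rgs2 (−0.18 to 0.18) and Rgs19 (−0.090 to 0.21), liver over lymph node of Rgs14 (−0.053 to 0.50) and spleen over lymph node of Rgs3 (−0.29 to 0.44), and in iNKT17-like cells liver over spleen of Rgs2 (−0.32 to 1.37) and Rgs1 (−1.12 to 0.0027).

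One called difference turned sign, that of Rgs1 for spleen over lymph node in iNKT1-like cells, from −0.57 to 0.17 without the part of cluster 2 (adjusted p = 0.81). The other turns were of uncalled values. Without TMM, liver over spleen was 0.0032 for Rgs19 in all cells and 0.065 for Rgs2 and 0.018 for Rgs16 in iNKT1-like cells. Rgs2 there was also 0.0077 without the low-count filter, 0.026 with thinning and 0.0077 without cells with Fos, Egr1 or Nr4a1. Spleen over lymph node in iNKT1-like cells was −0.16 for Rgs3 with thinning, 0.0028 for Rgs14 at Leiden resolution 1.0, and 0.045 for Rgs14 without the part of cluster 2.

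Replicate numbers were shared between organs, but their deviations correlated at only 0.075 to 0.098, so the numbers were not taken to pair the libraries. With the replicate block, 2 RGS genes in place of 1 were called between liver and spleen in all cells, Rgs14 being added (0.44, adjusted p = 0.025), and the other counts of called RGS genes were as without it. Over all genes, DESeq2 called 1300, 2354 and 1018 for liver and spleen, liver and lymph node, and spleen and lymph node, against 2613, 3827 and 1864 by edgeR. In iNKT1-like cells these were 686, 867 and 327 against 2192, 1907 and 726.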
